A study of Mus musculus with 20 samples.

Results

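The upper villus fraction V1 was compared with the middle villus fraction V2 of the mouse ileum. The arrays were chosen by the source name in the labels, which gave 4 V1 arrays and 4 V2 arrays, 8 of the 20 arrays of the series. In that series, miRNA expression was measured on Illumina bead arrays in 5 epithelial fractions collected from the villus tip towards the crypt, named V0, V1, V2, V3 and C1. All fractions came from the ileum of wild type C57BL/6J males aged 4 months, labelled as ileum epithelial cells, with no other allele and no agent given. The ileum was opened and shaken in chelating buffer, and the cells that came off in turn were pelleted and taken for total RNA, so V1 and V2 were separated by the order of release and not by a marker. The submitters give 4 mice but not which arrays share one, so the p-values here measure only the spread between arrays. The main fit takes this spread from all 20 arrays of the series.

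The ileal epithelium is renewed from stem cells in the crypt, and the cells move up the villus while they differentiate and are shed at the tip. Most villus cells are absorptive enterocytes, with goblet and enteroendocrine cells among them. miRNAs are short RNAs cut from a hairpin precursor. The bases next to the 5′ end, called the seed, pair with messenger RNAs and lower their translation and stability, and an asterisk in a miRNA's name marks the arm of the hairpin that is usually less abundant.

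No miRNA passed the test between V1 and V2. The 9 probes followed here had an unadjusted limma p under 0.05 or V1 and V2 arrays that did not overlap. They are not the 9 smallest p-values: miR-702, at an unadjusted limma p of 0.0892, is not among them, and miR-22, at 0.474, is. Of the 9, 6 have a mature sequence in the RefSeq table (GRCm38.p6). These are printed 5′ to 3′ with the seed (bases 2 to 8) in capitals. The first 4 had the higher mean in V1 and the last 2 the lower mean, and the 6 seeds all differ from each other.
miR-665: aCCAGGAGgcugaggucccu
miR-191*: gCUGCACUuggauuucguuccc
miR-342-3p: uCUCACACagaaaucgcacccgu
miR-22: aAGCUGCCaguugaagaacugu
miR-203*: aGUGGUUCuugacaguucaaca
miR-491: aGUGGGGAacccuuccaugagg
The other three were miR-532-5p, miR-712 and a probe with a solexa number in place of a miRNA name.

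The enterocyte miRNAs and the miR-200 family mark the labelled epithelium, and none of them passed the test between V1 and V2. They are shown to set the seeds of the enterocyte and epithelial families beside each other. miR-192 and miR-215, known as miRNAs of differentiated gut and liver epithelium, share 1 seed. miR-200b, miR-200c and miR-429 share another, and miR-200a with miR-141 share yet another. All 5 are known to repress the transcription factors Zeb1 and Zeb2 and so to keep the epithelial state.
miR-192: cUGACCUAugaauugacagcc
miR-215: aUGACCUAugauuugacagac
miR-194: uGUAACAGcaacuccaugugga
miR-200b: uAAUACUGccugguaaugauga
miR-200c: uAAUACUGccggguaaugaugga
miR-429: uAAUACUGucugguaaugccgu
miR-200a: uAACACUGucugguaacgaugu
miR-141: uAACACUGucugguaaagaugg

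The signal of each probe is the mean brightness of its beads after quantile normalization of all arrays together, taken to log2 here, so a difference of 1 is a 2-fold difference. Only probes detected (a detection p-value of at most 0.01) on all 4 arrays of V1 or of V2 were tested. Of the 655 probes, 342 met this, 27 of them with such a number. On all 8 arrays 242 probes were detected, and on none of them 69. All 4 V1 arrays detected 325 probes and all 4 V2 arrays 259, and no probe was detected on every array of one fraction and on none of the other.

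The arrays did not group by fraction. The third replicates of V1 and V2 stood apart from the rest, with Pearson correlations across the 342 probes (which are not independent) of 0.614 to 0.781 with the other arrays and 0.724 with each other. The remaining 6 arrays correlated at 0.868 to 0.957 between V1 and V2 (median 0.940) and at 0.874 to 0.958 within a fraction (median 0.912). Among these 6, pairs on the same slide correlated at 0.940 to 0.958 and pairs on different slides at 0.868 to 0.930. Pairs within a fraction more often lay on different slides, so their lower median cannot be told apart from the slide. V2 replicate 3 had the fewest detected probes of the 8 arrays (344 before normalization, against 388 to 481 on the others) and V1 replicate 3 the next fewest (388). One of these arrays was the farthest from the median of its fraction in 50.9% (V1) and 55.3% (V2) of the probes. Values without the third replicates are given beside the results they touch, an alternative chosen after the data were seen.

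**Figure D1:**
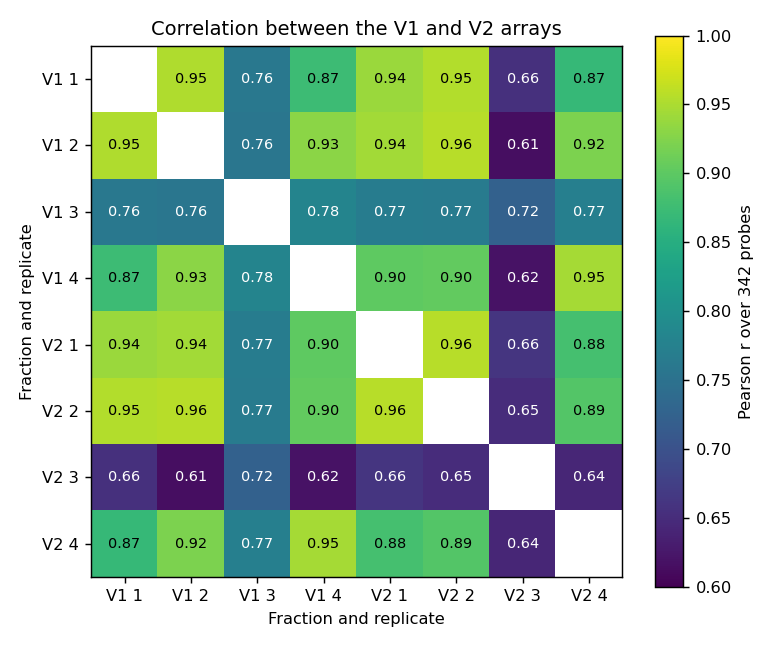
Pearson correlation of log2 normalized signal over 342 probes for every pair of the 8 V1 and V2 arrays (rows and columns, fraction and replicate). The row and column of V1 replicate 3 and of V2 replicate 3 are lower than the others (0.614 to 0.781), and pairs from different fractions reach 0.957.

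miR-532-5p, cut from a hairpin in an intron of the chloride transporter gene Clcn5 on the X chromosome, had the largest mean difference of the 342 probes. Its log2 signal was 12.19, 12.15, 13.78 and 13.49 on the V1 arrays and 9.14, 10.43, 8.87 and 12.93 on the V2 arrays. The groups overlapped through V2 replicate 4, which was above 2 of the V1 arrays, and only 2 of the 4 V2 arrays detected the probe. The mean was 2.56 higher in V1 (SE 1.19, 95% interval 0.06 to 5.06, 5.90-fold), with an unadjusted limma p of 0.0451 and an adjusted p of 0.9998. Without the third replicates the difference was 1.78.

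miR-665 comes from the imprinted Dlk1-Dio3 region of chromosome 12, a large cluster of maternally expressed small RNAs. Its log2 signal was 10.82, 9.54, 11.82 and 11.20 in V1 and 8.89, 9.92, 9.28 and 9.53 in V2. A single V1 array, replicate 2, lay among the V2 arrays, and 2 of the V2 arrays did not detect the probe. The V1 mean was 1.44 higher (SE 0.48, 95% interval 0.42 to 2.45, 2.71-fold) at an unadjusted limma p of 0.0082, the smallest of all, and an adjusted p of 0.9998. Leaving out V1 replicate 2 gave the lowest adjusted limma p seen for it in any alternative, 0.304, and leaving out the third replicates gave a difference of 1.07.

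These 2 probes were the only ones at an unadjusted limma p under 0.05 in the fit of all 20 arrays (0.585% of 342), both with the higher mean in V1. Each was detected on all 4 V1 arrays but only 2 V2 arrays. Both thus passed the filter through V1 alone, and their direction was not free of it. Among the 242 probes detected on all 8 arrays, 0 were at an unadjusted limma p under 0.05. After Benjamini-Hochberg adjustment over the 342 probes, 0 passed the threshold of an adjusted limma p of at most 0.05 with at least a 2-fold difference (0%). An exact two-sided rank-sum permutation test also called 0, with 7 at its smallest possible p of 0.0286. After adjustment it could have called a probe only if a large share of the 342 had reached that p, so its 0 adds no evidence. With the 8 V1 and V2 arrays alone in the limma fit, 6 were under an unadjusted p of 0.05. Of these, 3 had the higher mean in V1 (miR-532-5p, miR-665 and miR-191*) and 3 the lower (miR-203*, miR-712 and the solexa-numbered probe). Without the third replicates none was under an unadjusted p of 0.05 in the limma fit of all other arrays, and 9 were when V1 and V2 alone were fitted.

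Those 7 probes were the ones whose V1 and V2 arrays did not overlap at all, 2.05% of the 342. V1 lay above V2 in 3 of them (0.877%), miR-191*, miR-342-3p and miR-22. It lay below in 4 (1.17%), miR-203*, miR-491, miR-712 and the solexa-numbered probe, which were named after their values were seen. Without the third replicates 24 did not overlap, 10 with V1 above (2.92%) and 14 below (4.09%), which at 3 against 3 arrays is 7.02% of the 342. Random order separates 4 against 4 arrays fully at a rate of 0.0286, the smallest rank-sum p, and 3 against 3 arrays more often. The 2.05% is no excess over that rate, and the higher 7.02% with fewer arrays is no evidence of a difference. Of the 3 with V1 above at 4 against 4, 1 was a bright miRNA with a small difference and 2 had a difference of over 2-fold.

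miR-342-3p, from an intron of the actin regulator gene Evl on chromosome 12, had log2 signals of 13.97, 13.88, 13.52 and 13.26 in V1. In V2 they were 12.51, 13.19, 10.59 and 13.10. All V1 arrays were above all V2 arrays, by 0.07 at the nearest pair, and V2 replicate 3 was far below the other V2 arrays. The mean difference of 1.31 (SE 0.84, 95% interval −0.46 to 3.07) became 0.77 without the third replicates.

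miR-191* is the less abundant arm of the miR-191 hairpin on chromosome 9. Its signals were 11.01, 10.75, 12.33 and 10.88 in V1 against 10.32, 10.23, 10.28 and 9.38 in V2. The highest V1 array and the lowest V2 array each stood clear of their own group, and the mean difference was 1.19 (SE 0.73, 95% interval −0.35 to 2.73). The major arm, miR-191, was at 15.85 ± 0.04 in V1 and 15.80 ± 0.09 in V2 (SD, n = 4), with an interval of the difference of −0.53 to 0.63. Without the third replicates the difference of miR-191* was 0.91, under 2-fold. miR-191 lies at the top of the normalized scale, where probes are held to nearly equal values, and the difference between the arms was not tested.

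miR-22, a widely expressed miRNA studied most in heart muscle, was at 14.53, 14.51, 14.56 and 14.51 in V1. In V2 it was at 14.19, 14.37, 14.41 and 13.74. The V1 arrays were almost identical and lay just above the V2 arrays, but the mean difference was only 0.35 (SE 0.48, 95% interval −0.66 to 1.36). miR-22*, from the other arm, differed by 0.60 (SE 0.77) with overlapping arrays, and by −0.06 without the third replicates.

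Among the probes that lay lower in V1, miR-203* comes from the hairpin of miR-203, which in skin limits the renewal of epithelial stem cells. Its signals were 9.86, 9.04, 8.98 and 9.76 in V1, where 2 arrays detected it, and 10.16, 11.04, 9.97 and 10.33 in V2, where all did. The mean was 0.97 lower in V1 (difference −0.97, SE 0.94, 95% interval −2.94 to 1.01). With V1 and V2 alone in the fit the 95% interval was −1.73 to −0.20. The major arm miR-203 was bright in both fractions and its mean differed by 0.05 (SE 0.95).

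miR-491 had signals of 9.84, 9.42, 9.80 and 9.41 in V1 and 10.02, 9.91, 9.90 and 11.08 in V2, a difference of −0.61 (SE 0.70) with V2 replicate 4 well above the other V2 arrays. miR-712, in mice cut from a spacer of the ribosomal RNA precursor, was at 13.34, 13.61, 12.91 and 12.48 in V1 and at 14.26, 13.64, 14.05 and 13.85 in V2. These groups met within 0.03 at V1 replicate 2 and V2 replicate 2, and the difference was −0.86 (SE 1.13). The solexa-numbered probe differed by −0.68 (SE 0.98), from 11.82, 11.58, 11.13 and 11.86 in V1 to 11.96, 11.89, 12.53 and 12.72 in V2.

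**Figure D2:**
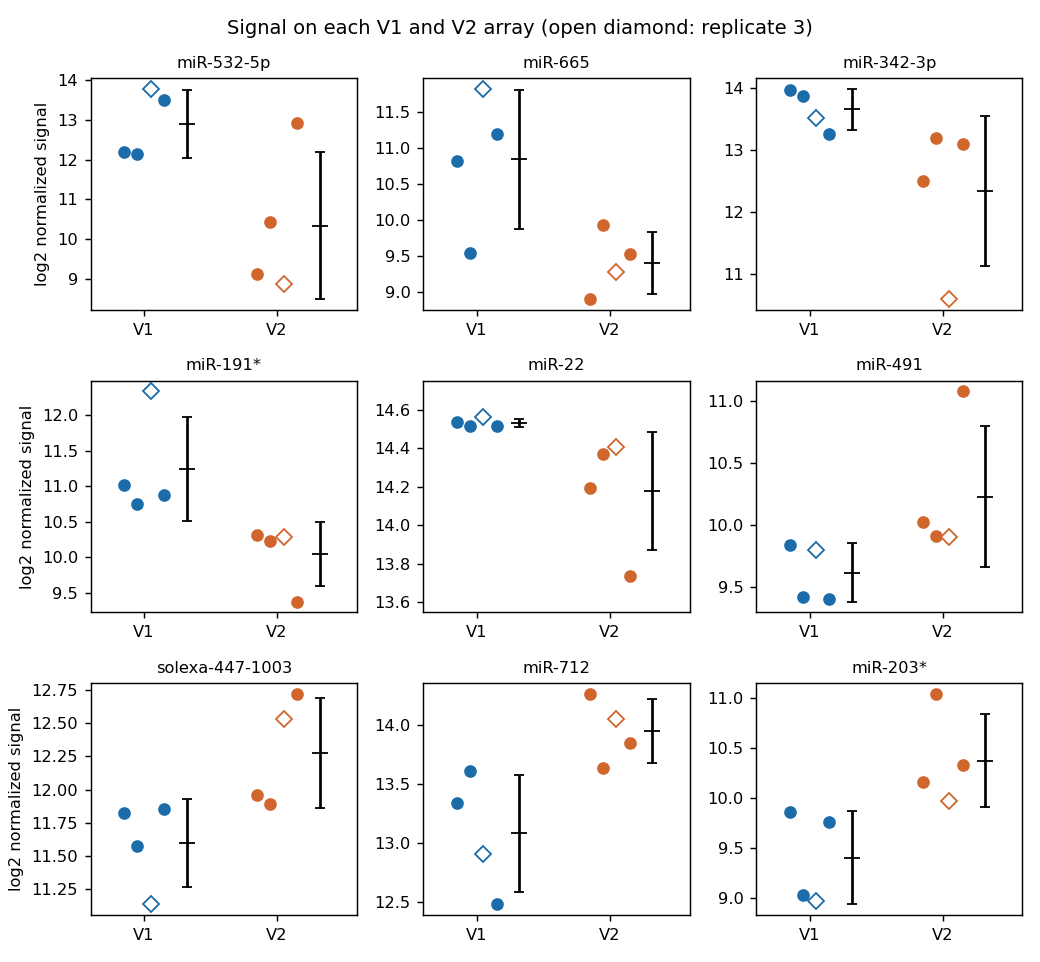
Log2 normalized signal of the 9 probes with an unadjusted limma p under 0.05 or arrays that did not overlap, on each V1 (blue) and V2 (orange) array. The mean and SD of 4 arrays are a bar beside them (open diamonds are the third replicates). The arrays do not overlap in 7 panels, and in miR-532-5p and miR-665 a single array crosses into the other group.

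The V1 and V2 arrays shared slides evenly. Slides 1 and 2 each held 2 V1 and 2 V2 arrays, the third replicates both on slide 2. On slide 1 the V1 mean exceeded the V2 mean by 2.39 for miR-532-5p and 0.77 for miR-665, and on slide 2 by 2.74 and 2.11. These are descriptions, since the probes were picked for their difference on the same arrays, and where arrays do not overlap the sign on each slide is fixed. For all 342 probes, 182 (53.2%) had the same sign on both slides. Between slides within V1 and V2, 5 probes passed the threshold (1.46%, limma on the 8 arrays with fraction as a term, adjusted p from 0.00102), among them the endothelial miR-126-3p at 11.62 on slide 1 and 10.10 on slide 2. Without the third replicates 15 passed (4.39%). None of these probes is among the 9 above.

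The other fractions give the setting of these probes along the axis, as a description without a test. V0 shared slides 1 and 2 with V1 and V2, but no V3 or C1 array was on slide 1, and these lay on slides 2 and 3 with 1 C1 array on slide 4, so part of any difference from them cannot be told apart from the slide. miR-22 had a mean of 13.73 ± 1.16 (SD, n = 4) in V0, 13.45 ± 0.62 in V3 and 11.01 ± 0.31 in C1, so its V1 mean of 14.53 was the highest of the 5 fractions and its crypt mean the lowest. miR-665 was near the detection limit in V0 (9.36 ± 0.68), V3 (9.52 ± 0.60) and C1 (9.04 ± 0.19), as in V2 (9.41 ± 0.43), and its V1 mean was 10.84 ± 0.96, with V1 replicate 2 among the V2 arrays. miR-342-3p had nearly the same mean in V0 (13.58 ± 0.72) as in V1 (13.66 ± 0.33), and lower means in V2 (12.35 ± 1.21), V3 (12.52 ± 0.37) and C1 (11.86 ± 2.34). The means of miR-491 and miR-203* were lowest in V1 and V0, respectively, and highest in C1, at 11.27 ± 0.99 and 11.37 ± 2.83.

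**Figure D3:**
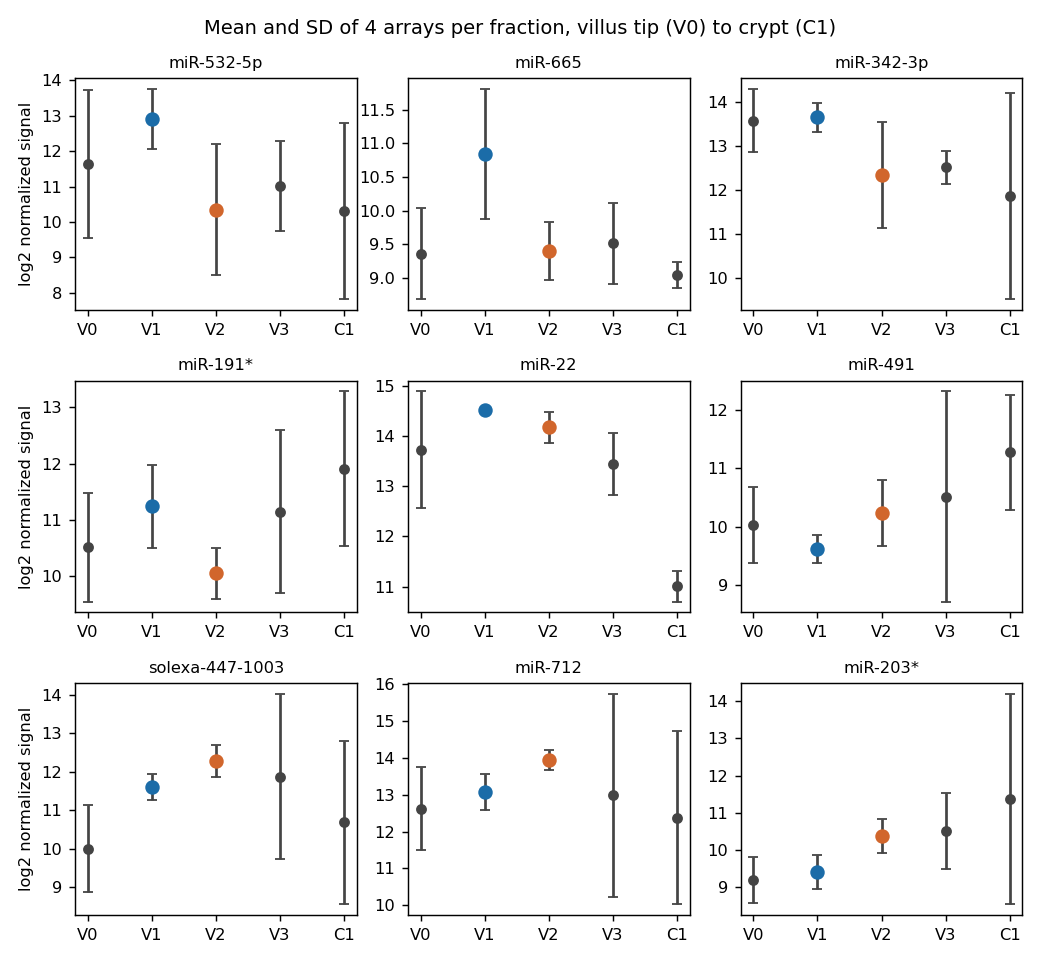
Mean and SD of log2 normalized signal over 4 arrays in each of the 5 fractions for the same 9 probes (V1 blue, V2 orange). miR-665 has its highest mean in V1 (10.84) and means of 9.04 to 9.52 elsewhere, and miR-22 is lowest in C1 at 11.01.

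Hairpins that lie close together on a chromosome are often cut from 1 transcript. Of the probes for hairpins within 10000 bases of miR-532 (RefSeq, GRCm38.p6), 4 were tested, itself included, and the opposite arm miR-532-3p, miR-188-5p and miR-362-3p differed by −0.07, −0.02 and −0.45, with overlapping arrays (0.16 for miR-532-3p without the third replicates). In the same window around miR-665, 7 probes were tested, miR-665 included, with a median difference of 0.17 (−0.54 to 1.44), and miR-434-5p came next to it at 1.13 (SE 1.38), detected on 1 V2 array, with V1 replicate 3 at 12.75 and a difference of 0.39 without the third replicates. miR-425, the cluster partner of miR-191, was at 14.83 ± 0.07 in V1 and 14.90 ± 0.24 in V2 (SD, n = 4). None of the neighbours had arrays that did not overlap.

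Over all 342 probes the differences centred on 0, with a median of 0.02, quartiles of −0.28 and 0.26 and a range of −1.61 to 2.56. The mean was higher in V1 for 176 probes (51.5%) and lower for 166. This split moved with the scaling: without normalization 67.3% were higher in V1 and the median difference was 0.17, and with arrays centred on their median these were 62.0% and 0.10. It also moved with the probes and arrays used. The share was 47.9% with detection on all 8 arrays, 46.9% without a detection filter and 47.7% without the third replicates. On slide 1 alone it was 42.1%, and on slide 2 alone 56.7%. A difference of 2-fold or more was seen for 21 probes, 16 higher and 5 lower in V1. The detection filter admitted 83 of the probes tested through V1 alone and 17 through V2 alone. The 16 to 5 split is therefore not independent of the filter and is no evidence of a direction. Of the 21, 4 kept a 2-fold difference in the same direction without the third replicates, namely miR-532-5p, miR-665, miR-682 and the older miR-101a probe.

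**Figure D4:**
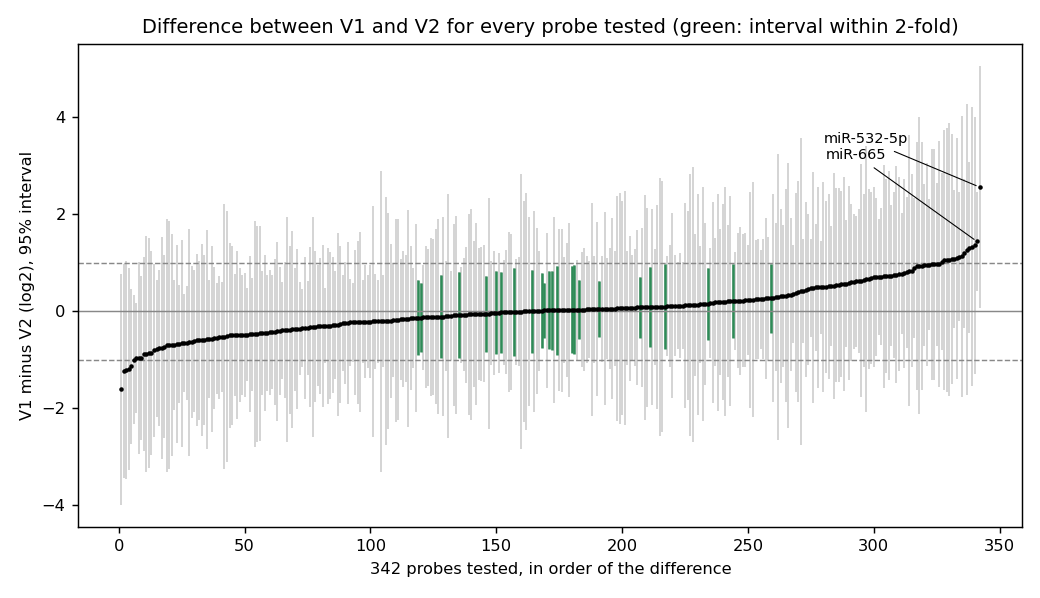
Difference of the means, V1 minus V2 on the log2 scale (dots), with the 95% limma interval (lines) for the 342 probes tested, in order of the difference. Dashed lines mark 2-fold, green lines are the 24 probes whose interval lies within it, and the intervals of miR-532-5p and miR-665 are the only ones clear of 0.

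The largest difference in the other direction was that of miR-682, with signals of 8.77, 8.61, 11.60 and 9.27 in V1 and 9.70, 10.51, 13.70 and 10.80 in V2. The third replicates were the highest of each fraction, and the V1 one overlapped the V2 arrays. The difference was −1.61 (SE 1.13) and −1.45 without them. miR-101a:9.1 stood at 9.68 to 9.94 in V1 and at 9.59 to 12.97 in V2, 2 arrays of which carried the difference of −1.13 (SE 0.76).

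For 24 probes (7.02%) the 95% interval of the difference lay within 2-fold, so that these arrays bound the difference on both sides. Of these, 16 were dim, with a mean log2 signal below 10, and 7 were bright, with a mean of at least 13. The bright ones included let-7f (−0.56 to 0.59), let-7d (−0.58 to 0.64), miR-191, miR-7a (−0.89 to 0.95) and miR-194 (−0.87 to 0.92). The dim ones included miR-551b:9.1, miR-466e-5p, miR-217, miR-325, miR-693-5p, miR-146b* and miR-133a*, whose signals were near the detection limit on both sides. With V1 and V2 alone in the fit, 119 probes (34.8%) were bounded within 2-fold, 48 of them bright. That fit leaves out the wider spread of V3 and C1 (median SD per probe 1.27 and 1.18, against 0.49 in V1 and 0.65 in V2). These SDs are over probes picked by detection in V1 or V2, and part of the V3 and C1 arrays lay on other slides.

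The enterocyte miRNAs miR-192, miR-194 and miR-215 were bright on all 8 arrays. miR-192 was at 15.44, 15.40, 15.27 and 15.50 in V1 and at 15.48, 15.44, 15.11 and 15.44 in V2. miR-215 was at 15.90 on all V1 arrays and on 3 V2 arrays, and at 15.71 on V2 replicate 3. The 3 differences were 0.03 to 0.05 with SEs of 0.43 to 0.52, and with V1 and V2 alone in the fit all 3 were bounded within 2-fold. Quantile normalization gives every array the same set of values, so the probes of highest rank are held to nearly equal values.

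The miR-200 family was detected on all 8 arrays in 4 of its 5 members, so with the enterocyte miRNAs the labelled epithelium had its defining markers. miR-200b was at 15.91 on 7 arrays and at 15.62 on V2 replicate 3. miR-141, the exception, was at 13.42, 13.38, 9.14 and 13.17 in V1 and 13.17, 13.42, 10.14 and 14.26 in V2, so that the third replicates of both fractions were low. The 5 differences had a median of 0.07 (−0.47 to 0.17), beside 0.02 over all probes, and −0.01 without the third replicates, and none passed the test.

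All 9 let-7 and miR-98 probes were detected on every array. These miRNAs accumulate in differentiated cells and repress growth genes such as Hmga2 and the Ras genes. The V1 mean was higher for 8 of the 9, with a median of 0.06 and a range of −0.04 to 0.32, and without the third replicates for 5 of the 9 with a median of 0.01. let-7e, which the study selected for follow-up, was at 13.38, 13.85, 11.38 and 11.87 in V1 and 13.15, 13.15, 10.27 and 13.08 in V2. The arrays overlapped, and the difference of 0.21 had an SE of 1.03 and a 95% interval of −1.96 to 2.37, which holds differences of either sign, and without the third replicates it was −0.09.

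Of the 9 miRNAs the study selected on this axis, 8 were tested here and 0 passed in limma (0 also at an unadjusted p under 0.05). The study chose the list in part by comparing V0 with C1 arrays of the same series, so it is not independent evidence of a direction. Their median difference was 0.28, and 0.00 without the third replicates. miR-22 was the only one whose arrays did not overlap. miR-199b* differed by 1.07 (SE 0.68) through V1 replicate 3 alone, at 13.31 against 9.49 to 10.23 on the other V1 arrays. miR-29b differed by 0.75 (SE 1.07) through V2 replicate 3, at 8.92 against 13.44 to 13.95 on the other V2 arrays, and by −0.06 without the third replicates.

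The clusters linked to proliferation showed small differences of both signs. For miR-17 to miR-92 and its paralogous clusters, which Myc switches on in dividing cells, 12 probes were tested, 5 means were higher and 7 lower in V1, and the median was −0.24. miR-18a, the member with the smallest p, was at 13.70, 13.17, 12.62 and 13.66 in V1 and 13.36, 13.61, 14.00 and 14.82 in V2. The arrays overlapped and the difference was −0.66 (SE 0.48). Without the third replicates 10 of the 12 means were lower in V1, with a median of −0.24, and none passed.

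Other families leaned to V1 with all arrays and less without the third replicates. The 5 tested members of the miR-23, miR-27 and miR-24 clusters all had the higher mean in V1 with a median of 0.58, which became 0.06 without them. Of the 6 growth-linked miRNAs 4 were tested (miR-21, miR-31, miR-155 and miR-210), and all 4 means were higher in V1 with a median of 0.63, and 0.38 without them. miR-31 was at 14.98, 15.00, 14.32 and 14.80 in V1 and at 14.53, 14.53, 11.21 and 14.59 in V2, so its difference of 1.05 (SE 1.30) rested on V2 replicate 3 and was 0.37 without the third replicates. The 4 tested miR-30 members went from a median of 0.43 to 0.18, and the 3 miR-29 members from 0.20 to −0.06. All-probe medians were 0.02 and −0.01.

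Of the remaining lists, the pair tested of the miR-99, miR-100 and miR-125 families had a median of 0.95, which was 0.31 without the third replicates. The miR-181 pair had −0.59 and −0.22, the 4 Hox cluster probes −0.26 and −0.08, and the 3 probes of the miR-15 and miR-16 family 0.13 and 0.70. The miR-183, miR-96 and miR-182 cluster had −0.06 and 0.11, the miR-148, miR-152, miR-130 and miR-301 families −0.10 and −0.26, and the pluripotency clusters miR-290 and miR-302 −0.04 and 0.00. Of the miR-34 family only miR-34a was tested, with a difference of 0.20 (SE 0.74) that rested on V1 replicate 3 and turned to −0.64 without the third replicates. In none of these lists did a member pass or reach an unadjusted limma p under 0.05.

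Markers of other cells that the fractions could hold were measured in the same way. Of 7 leukocyte markers, 6 were tested and all 6 had the higher mean in V1 (miR-155 also stands in the growth-linked list), with a median of 0.81 (0.12 to 1.06) and 0.48 without the third replicates. The log2 of their summed signal was 15.62 to 17.23 on the V1 arrays and 14.05 to 16.84 on the V2 arrays, so the groups overlapped, and none of the 6 passed or reached an unadjusted limma p under 0.05. miR-142-5p, found in blood cells, was at 13.26, 12.70, 11.89 and 10.45 in V1 and at 9.60, 11.97, 11.47 and 11.47 in V2, with overlap and a difference of 0.95 (SE 0.80). The part of these cells in the differences above was not tested, and in bulk fractions fewer cells of a type and less RNA per cell cannot be told apart.

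The secretory markers miR-375 and miR-7a, miRNAs of endocrine and related cells, were bright in both fractions. miR-375 was at 15.30 ± 0.35 in V1 and 15.38 ± 0.31 in V2, and miR-7a at 15.63 ± 0.15 and 15.60 ± 0.17 (SD, n = 4). With miR-7b the list had a median of −0.08 and 1 of 3 means higher in V1. The smooth muscle and mesenchyme markers miR-143 and miR-145 were detected on all 8 arrays, with differences of 0.38 (SE 0.98) and 0.22 (SE 0.66). The log2 of their summed signal was 15.62 to 16.13 in V1 and 15.30 to 15.90 in V2. Fibroblast and stroma markers had 3 of 5 means higher in V1 and a median of 0.34, with summed log2 signals of 14.22 to 15.36 and 13.97 to 15.36.

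Most striated muscle and neuron markers were detected on part of the arrays. Among those of striated muscle, miR-1 was detected on 1 V1 and 1 V2 array, miR-133b on 2 and 2 and miR-206 on 2 and 1, and only miR-133a, detected on all 8 arrays, was tested. Its difference of −0.33 (SE 0.79) rested on V2 replicate 3 and turned to 0.35 without the third replicates. Of the neuron markers, only miR-128 was tested (0.74, SE 0.81, and 0.27 without the third replicates), and miR-124 was detected on no V1 array and 1 V2 array. The endothelial pair miR-126-3p and miR-126-5p had differences of 0.61 and 0.31, with summed log2 signals of 11.73 to 14.11 in V1 and 11.69 to 13.90 in V2. Of the red cell markers, miR-451 was at 11.21 ± 1.39 in V1 and 11.27 ± 0.91 in V2 (SD, n = 4), and of the 2 miR-144 probes one was detected on none of the 8 arrays and the other, miR-144:9.1, on all 8, with a difference of −0.44 (SE 0.61) that was −0.06 without the third replicates.

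**Figure D5:**
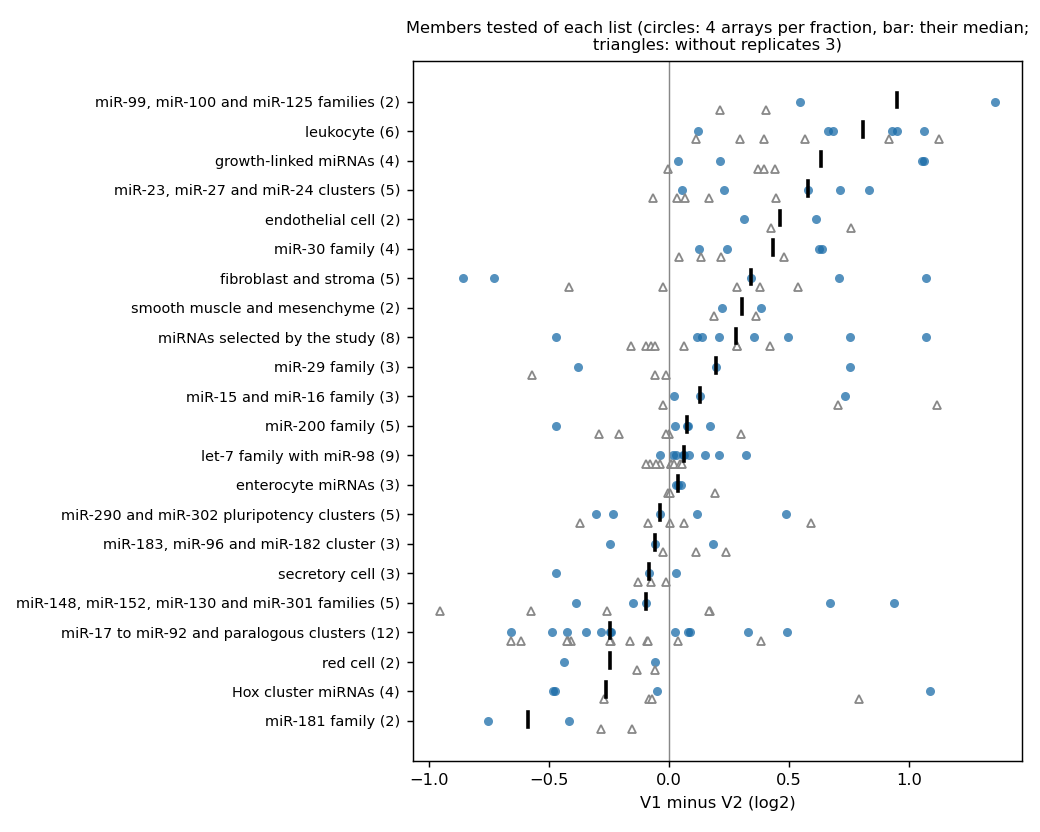
Difference of the means, V1 minus V2 on the log2 scale, for each tested member of the lists with at least 2 tested members (number in brackets). Circles are all 4 arrays per fraction with their median as a bar, and triangles are without the third replicates, which move the leukocyte median from 0.81 to 0.48 and that of the miR-23, miR-27 and miR-24 clusters from 0.58 to 0.06.

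The detection calls leaned towards V1. All 4 V1 arrays and fewer V2 arrays detected 83 probes, 64 of them on 3 of the V2 arrays, 13 on 2 and 6 on 1, and in 42 of the 83 the only array without detection was V2 replicate 3. The reverse held for 17 probes, and in 8 of these only V1 replicate 3 lacked detection.

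The neighbouring steps of the axis, which share arrays with this comparison, also gave 0 probes past the threshold in the same limma fit. Between V0 and V1, 356 probes were tested, 13 were at an unadjusted p under 0.05 (3.65%) and 12 had arrays that did not overlap (3.37%). Between V2 and V3, 302 were tested, 3 were at an unadjusted p under 0.05 (0.993%) and 2 did not overlap (0.662%). The median size of the difference was 0.27 between V1 and V2, 0.36 between V0 and V1 and 0.51 between V2 and V3. Whether these steps differ from one another was not tested.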

How the data were processed

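Total RNA of the ileal fractions was hybridized to Illumina miRNA bead arrays, 20 in all. The authors read the arrays with GenomeStudio and applied quantile normalization across all of them to the average signal intensity of each probe, with no background subtracted. They deposited this intensity in 2 tables, as read and as normalized, both with the software's detection p-value for every probe on every array. The series values equal the deposited normalized table (largest difference 0). A genome build was not given in the sources used here. Positions are not printed.

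Here log2 of the normalized intensity was analysed with limma (version 3.58.1, R 4.3.3) in 1 fit of all 20 arrays with a mean for each fraction, eBayes moderation, the contrast V1 minus V2 and Benjamini-Hochberg adjustment over 342 probes. The study's paired test could not be run, because no label pairs arrays by mouse. SD values are over arrays. SEs are moderated and, in the fit of all 20 arrays, rest on the spread within all fractions. The fit was first tested on simulated data. Alternatives changed 1 choice at a time, apart from 2 that also fitted V1 and V2 alone (scaling, background, detection filter, slide, samples, spread model, test, arrays left out with the 342 probes kept), and those without the third replicates were added after the data were seen. The number of arrays limits the precision.

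The fractions and the 27 lists, the cell type markers among them, were chosen with earlier results of these data known. The marker lists for epithelial identity and enterocytes repeat the miR-200 and enterocyte lists. Counted as named were up to 12 probes per direction with the smallest p, up to 3 members of each list and the study's selected miRNAs. The 10 narrowest intervals within 2-fold were added, plus a few chosen after their values were seen. Not all of these probes are printed in the text. Sequences are from RefSeq (GRCm38.p6), where 15 of 17 names looked up matched. Figures were drawn with matplotlib 3.10.9.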

Additional observations from a re-analysis of the deposited data

Results flagged for a closer look

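In the V1 and V2 groups of the named probes, 39 of 192 groups of 4 arrays (20.3%) had 1 array far from the other 3. Chance gives about 5% for independent groups. These groups share the same V1 and V2 arrays, and the probes were named partly for their values, so that share is no valid yardstick. The array was V2 replicate 3 in 17 of them and V1 replicate 3 in 10. All values below are log2 normalized signals, and the range in brackets is that of the other 3 arrays of the fraction.

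V2 replicate 3 was far below its fraction for miR-155 at 9.16 (13.70 to 14.34), miR-125a-5p at 9.06 (13.12 to 13.76), miR-29b at 8.92 (13.44 to 13.95) and miR-130b at 9.23 (12.45 to 13.01). It was also below for miR-30a at 9.10 (12.45 to 12.77), let-7e at 10.27 (13.08 to 13.15), miR-31 at 11.21 (14.53 to 14.59), miR-30b at 12.17 (14.30 to 14.59), let-7i at 14.12 (15.36 to 15.52) and miR-15b at 14.53 (15.71 to 15.80). Smaller gaps on this array were those of miR-335-5p at 10.02 (10.79 to 10.92), miR-192 at 15.11, let-7d at 15.50, miR-200b at 15.62 and miR-215 at 15.71. It was far above for miR-1224 at 13.36 (9.23 to 9.88) and miR-133a at 13.40 (9.45 to 10.07).

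V1 replicate 3 was far below its fraction for miR-141 at 9.14 (13.17 to 13.42), miR-7b at 9.28 (13.21 to 13.64), miR-30a at 9.41 (12.59 to 13.10), miR-181a at 9.95 (13.21 to 13.59) and miR-182 at 12.01 (13.95 to 14.23). miR-429 at 14.44 and miR-15b at 15.14 were below by less. miR-215 was at 15.896 against 15.905 on the other V1 arrays, a very small gap at the top of the scale that was still counted. It was far above for miR-191* at 12.33 (10.75 to 11.01) and miR-34a at 12.29 (9.57 to 9.65).

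Among the other arrays, V2 replicate 4 stood apart for miR-191* at 9.38 (10.23 to 10.32), miR-654-3p at 10.53 (13.05 to 13.34), miR-302d at 10.36, miR-34a at 11.34 (9.56 to 9.75) and miR-194 at 13.76 (14.76 to 14.82). V1 replicate 4 did so for miR-199a-3p with miR-199b at 13.19, miR-210 at 12.72 (10.58 to 10.86) and miR-29a at 14.48. V1 replicate 1 did so for miR-145 at 14.82, miR-191 at 15.78 and let-7f at 15.85, and V1 replicate 2 for miR-466a-5p at 11.13.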

How the results depend on the processing

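No paired analysis was possible because no label ties an array to a mouse. The count of 0 probes past the threshold was the same under all 24 alternatives, the exact rank-sum permutation test and the adjusted limma p alone among them. For the rank-sum test this was nearly fixed in advance, because its smallest possible p was 0.0286 before adjustment over the 342 probes. The 9 probes picked by an unadjusted limma p under 0.05 or by arrays that did not overlap were picked on the same arrays, so their sign across settings says nothing of stability. Of 1933 values of the other named probes 48 moved by more than 1 SD of the arrays. Of the counts at an unadjusted limma p under 0.05, the highest was 10, with V1 and V2 alone and slide as a block.

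The count bounded within 2-fold, 24 in the report, depended on the choices. It was 44 without normalization, 66 after centring each array on its median, and 3 after limma's neqc. It was 8 of 242 probes detected on all 8 arrays and 176 of all 655 probes. It was 58 with slide as a block, 76 on slide 1, 0 on slide 2 (limma, where 4 were at an unadjusted p under 0.05), 47 with a covariate for how many probes an array detected, 119 with V1 and V2 alone and 129 with these and slide as a block. Leaving out 1 array gave 10 to 15. Leaving out the third replicates of both fractions, a choice made after the data were seen, gave 12, and 156 with V1 and V2 alone. The cause of these shifts was not tested, apart from the fewer or more probes that the detection filters leave.

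The intervals are wide: the median SE of a difference was 0.76, so that for most probes the interval reaches beyond 2-fold. Background was not subtracted, which narrows differences between dim signals, and the top of the scale holds bright probes close together, with 51 probes at or above 50000 units on at least 1 array before normalization.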
